A study of Mus musculus with 8 samples.

Results

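The genes described here are a pair of WNT ligands and a set of genes that canonical WNT signalling is known to control or use, measured in R1 mouse embryonic stem cells. The set names 10 genes, Wnt8a, Wnt3, Sp5, Lef1, Nkd1, Axin2, Tcf7, Tcf7l1, Cdx1 and Dkk1, of which 9 were measured among 19937 genes. Tcf7 has no probe set of its own in the annotation used and was not analysed here. The genes were picked for their role in the pathway with their difference between the groups already known. Their differences and limma calls are therefore given as a description only. RNA came from male cells of a 129X1 x 129S1 line derived from the inner cell mass of the blastocyst, grown on gelatin with LIF and 15% serum. One group of 4 arrays (numbered 1, 3, 5 and 7 in the labels) carried the plasmid pLKO.1 shGFP, which encodes a hairpin against a jellyfish gene that mouse cells lack. The other group of 4 arrays (numbered 2, 4, 6 and 8) carried pLKO.1 shMKRN1, whose hairpin targets Mkrn1, the gene of a RING ubiquitin ligase that also binds mRNA. Both groups received 2 µg of plasmid, spent 4 days in puromycin and were harvested 6 days after transfection, so the controls share the plasmid backbone and the drug. Each target has 1 hairpin. No label names separate transfections behind the 4 arrays of a hairpin, so the spread between them may be technical.

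WNT proteins are secreted lipid-modified ligands that bind Frizzled receptors and LRP coreceptors. Binding halts the complex of AXIN, APC and the kinases CK1 and GSK3 that otherwise marks beta-catenin for destruction, and beta-catenin then enters the nucleus and works with the TCF and LEF factors on target genes. Several of the targets, such as Axin2, Nkd1 and Dkk1, encode inhibitors that feed back on the signal. In mouse embryonic stem cells the pathway supports self-renewal largely by relieving repression by TCF7L1, and in the embryo Wnt3 is needed to form the primitive streak.

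The TCF and LEF factors bind a short sequence, and the windows below show where its letters occur near the start sites of these genes. RefSeq promoter windows (GRCm38.p6, 250 bases before to 50 bases after a start site) were at hand for 8 of the 10 genes, in 12 windows. The letters searched were CAAAG with 2 bases before it that are each A or T, on both strands, so that a match on the other strand reads CTTTG with 2 such bases after it. Factors of the SOX family, which hold the same kind of DNA-binding domain, bind closely similar letters, so a match does not name a factor. The letters occurred in windows of 4 genes, Sp5, Dkk1, Wnt3 and Lef1, and are in capitals below. They occurred in 4 of the 12 windows (33.3%), against 16.9% of all 32851 windows of the same length. The windows shown are those of Sp5 at chr2:70474673-70474972 (plus strand), Dkk1 at chr19:30549447-30549746 (minus strand), Wnt3 at chr11:103773925-103774224 (plus strand) and a downstream start of Lef1 at chr3:131156044-131156343 (plus strand), because they hold the letters. That of Axin2 at chr11:108920099-108920398 (plus strand) is shown as a known target whose window holds none.
Sp5: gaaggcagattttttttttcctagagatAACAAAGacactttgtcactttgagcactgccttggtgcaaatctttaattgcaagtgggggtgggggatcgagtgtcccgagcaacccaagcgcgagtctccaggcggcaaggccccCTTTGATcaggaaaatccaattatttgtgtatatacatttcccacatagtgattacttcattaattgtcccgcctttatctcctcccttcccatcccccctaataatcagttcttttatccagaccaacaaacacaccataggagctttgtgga
Dkk1: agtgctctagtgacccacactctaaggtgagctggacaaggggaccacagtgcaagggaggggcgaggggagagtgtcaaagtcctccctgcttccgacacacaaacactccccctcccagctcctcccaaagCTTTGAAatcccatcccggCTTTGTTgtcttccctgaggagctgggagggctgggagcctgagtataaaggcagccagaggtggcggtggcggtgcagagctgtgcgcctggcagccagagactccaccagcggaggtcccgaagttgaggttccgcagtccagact
Wnt3: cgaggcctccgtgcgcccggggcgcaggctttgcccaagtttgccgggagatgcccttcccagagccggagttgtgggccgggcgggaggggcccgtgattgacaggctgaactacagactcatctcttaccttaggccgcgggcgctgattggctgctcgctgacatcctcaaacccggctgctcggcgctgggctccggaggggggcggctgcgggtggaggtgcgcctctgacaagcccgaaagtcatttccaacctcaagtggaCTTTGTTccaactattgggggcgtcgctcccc
Lef1 downstream start: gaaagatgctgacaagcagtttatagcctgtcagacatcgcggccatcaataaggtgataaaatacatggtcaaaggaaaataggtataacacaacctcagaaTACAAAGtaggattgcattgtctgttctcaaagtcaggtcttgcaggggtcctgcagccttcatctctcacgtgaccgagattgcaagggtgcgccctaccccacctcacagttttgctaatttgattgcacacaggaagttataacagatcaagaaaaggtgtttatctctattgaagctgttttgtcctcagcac
Axin2: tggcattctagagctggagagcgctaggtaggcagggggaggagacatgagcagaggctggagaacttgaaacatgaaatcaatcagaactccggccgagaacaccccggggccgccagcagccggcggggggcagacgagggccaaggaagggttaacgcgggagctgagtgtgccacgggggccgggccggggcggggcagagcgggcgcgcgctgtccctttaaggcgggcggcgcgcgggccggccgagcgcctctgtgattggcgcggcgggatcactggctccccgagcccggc
Sp5 and Dkk1 each held 2 matches, and 1.94% of all windows held 2 or more. In Sp5 the matches began 222 and 104 bases before the start site, on opposite strands. In Dkk1 they began 117 and 98 bases before it, on the same strand. The match of Wnt3 lay 18 bases after the start site. Of the 4 Lef1 windows, the 3 further upstream held none. The nearer of the Sp5 matches alone kept its letters when 1 more G was required after them, which 4.96% of all windows met. The windows of Nkd1, Axin2, Tcf7 and Tcf7l1 held no match, which says only that these letters are not in these 300 bases.

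**Figure D1:**
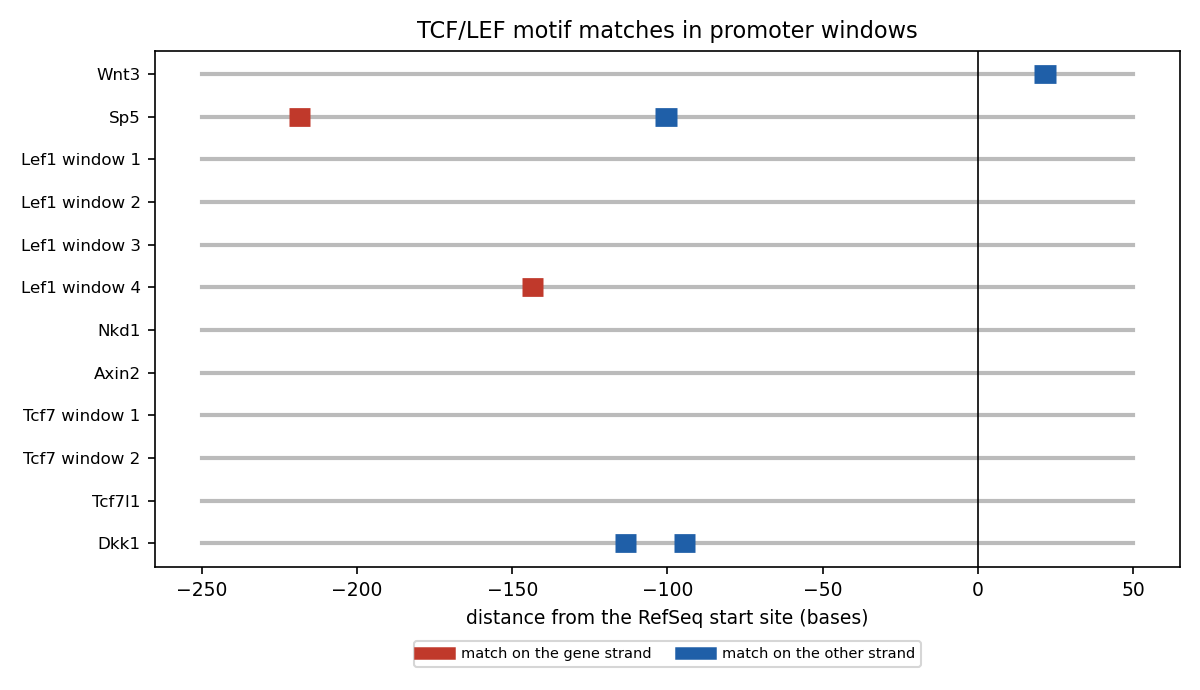
Positions of the TCF/LEF motif letters (coloured blocks, by strand) in 12 RefSeq promoter windows (grey lines), with the distance from the start site in bases on the horizontal axis. Sp5 and Dkk1 hold 2 matches each, Wnt3 and the downstream Lef1 window 1 each, and the other 8 windows none.

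The deposited values are log2 RMA values of an array, with medians between 7.14 and 7.24. Mkrn1 was at 10.44 ± 0.069 on the shGFP arrays against 9.84 ± 0.036 on the shMKRN1 arrays (SD, n = 4), or 66.2% of the control level. The exact two-sided permutation p was 0.0286, the lowest that 70 assignments allow. Markers of embryonic stem cells were high in both groups: the mean log2 level of 10 of them lay between 11.49 and 11.59 on the shGFP arrays and between 11.54 and 11.63 on the shMKRN1 arrays. Over all genes, 896 of 19937 (4.49%) passed limma at an adjusted p of 0.05, 729 higher (3.66%) and 167 lower (0.838%) in shMKRN1. The leading principal component set shGFP 7 (23.2) and shMKRN1 8 (7.46) apart from the others of their groups, which lay between -3.45 and 6.2 and between -15.2 and -6.02. With both left out, Wnt8a and Sp5 remained the called genes of the set. Silent olfactory and vomeronasal receptor genes gave a scale of background, with 95% of their means below 6.50. All 9 measured genes of the set lay above this in both groups.

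Wnt8a, which encodes a ligand of the epiblast and the primitive streak, had the largest difference of the set. The shGFP arrays 1, 3, 5 and 7 read 7.58, 7.85, 8.14 and 7.99 (log2), and the shMKRN1 arrays 2, 4, 6 and 8 read 8.83, 8.88, 8.84 and 8.86. All 4 shMKRN1 arrays were above every shGFP array, with a gap of 0.69 between the groups. The difference was 0.96 (SE 0.10; 95% interval 0.73 to 1.19), or 1.95-fold (1.66 to 2.28), and it was the 14th largest increase of all genes. The shMKRN1 values were also very close to each other, with an SD of 0.024 against 0.24 in shGFP. A ratio of SDs as large as this 9.86 occurred in 0.201% of all genes. These are bulk samples, so more cells with the transcript and more transcript per cell cannot be told apart.

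Wnt3, the ligand gene needed for streak formation in the embryo, was also higher on every shMKRN1 array, but narrowly. The shGFP arrays read 7.22, 7.40, 7.53 and 7.31, and the shMKRN1 arrays 8.01, 7.79, 7.59 and 7.63. The lowest shMKRN1 array lay 0.062 above the highest shGFP array, which is less than the range within either group (0.30 and 0.42). The difference was 0.39 (SE 0.099; interval 0.17 to 0.61), and array 2 was the highest. Wnt3 did not pass the threshold over all genes. The difference without shMKRN1 2 was 0.31.

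All 19 Wnt genes of the mouse were measured, and none of the 17 besides Wnt8a and Wnt3 passed limma at an adjusted p of 0.05, with 1 at an unadjusted p under 0.05. That gene was Wnt7b (0.22, SE 0.062; limma adjusted p = 0.0761). The differences of the 17 lay between -0.22 and 0.22, with 8 higher and 9 lower means and a median of -0.0014, against a median of 0.0077 over all genes. Wnt1 and Wnt8b lay within the background in both groups.

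Sp5, a zinc finger factor gene that is among the most direct targets of beta-catenin, had the second difference of the set. The shGFP arrays read 7.75, 8.11, 8.15 and 7.99, and the shMKRN1 arrays 8.60, 8.59, 8.35 and 8.43. The groups did not overlap, and the gap of 0.20 was below the range within shGFP (0.40). The difference was 0.49 (SE 0.095; interval 0.28 to 0.70), or 1.41-fold. Sp5 passed the threshold over all genes together with Wnt8a, but fell short of it without shMKRN1 2 (0.46) or without shMKRN1 4 (0.46). Its promoter window holds the pair of matches printed above.

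Of the TCF/LEF factors, LEF1 mostly activates with beta-catenin and its gene is itself a target, while TCF7L1 is the main repressor of the family in these cells. Lef1 read 9.55, 9.77, 9.72 and 9.74 on the shGFP arrays and 9.91, 9.84, 9.90 and 10.03 on the shMKRN1 arrays. The groups were separated by 0.067, and the difference was 0.22 (SE 0.065; interval 0.079 to 0.37), short of the threshold over all genes. Tcf7l1 read 10.93, 11.01, 10.85 and 10.93 against 11.03, 10.86, 10.92 and 10.99. Its groups overlapped fully, and the difference of 0.018 (SE 0.057) had an interval of -0.11 to 0.15. On the fold scale this interval was 0.927-fold to 1.11-fold, and it rests on the spread between these arrays alone.

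None of the feedback inhibitor genes Nkd1, Axin2 and Dkk1 passed the threshold over all genes, and their 95% intervals overlapped. Nkd1, whose product binds Dishevelled and dampens the signal, read 7.93, 7.97, 7.87 and 8.04 in shGFP and 8.24, 8.10, 8.14 and 8.16 in shMKRN1. Its groups were separated by 0.066, with a difference of 0.21 (SE 0.056; interval 0.088 to 0.34) that was short of the threshold over all genes. Without shGFP 7 it passed, at 0.24.

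Axin2 encodes a scaffold of the destruction complex and is the usual readout of canonical WNT signalling. It read 8.30, 8.47, 8.40 and 8.22 in shGFP and 8.66, 8.46, 8.43 and 8.48 in shMKRN1. The groups overlapped, since shGFP 3 lay above shMKRN1 4 and shMKRN1 6, and array 2 was well above the rest. The difference was 0.16 (SE 0.073), with an interval of -0.00049 to 0.32 that does not exclude 0.

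Dkk1, whose secreted product blocks the LRP coreceptors, was the 1 gene of the set with a lower mean in shMKRN1. It read 8.79, 8.32, 8.16 and 8.07 in shGFP and 8.55, 8.11, 8.04 and 8.05 in shMKRN1. Arrays shGFP 1 and shMKRN1 2 were the highest of their groups, and the groups overlapped. Each shMKRN1 array read below the shGFP array numbered just before it, though no label ties these arrays. The difference of -0.15 (SE 0.16, interval -0.51 to 0.21) was smaller than the SD within shGFP (0.32). Without shGFP 1 the difference was 0.0044, and without shMKRN1 2 it was -0.27. Each of these fits keeps the high array of the other group.

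Cdx1, a homeobox gene of the posterior embryo and a WNT target, read 7.70, 7.86, 7.76 and 8.02 in shGFP and 7.97, 7.81, 7.93 and 8.02 in shMKRN1. The groups overlapped, and the difference was 0.10 (SE 0.077; interval -0.070 to 0.27).

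**Figure D2:**
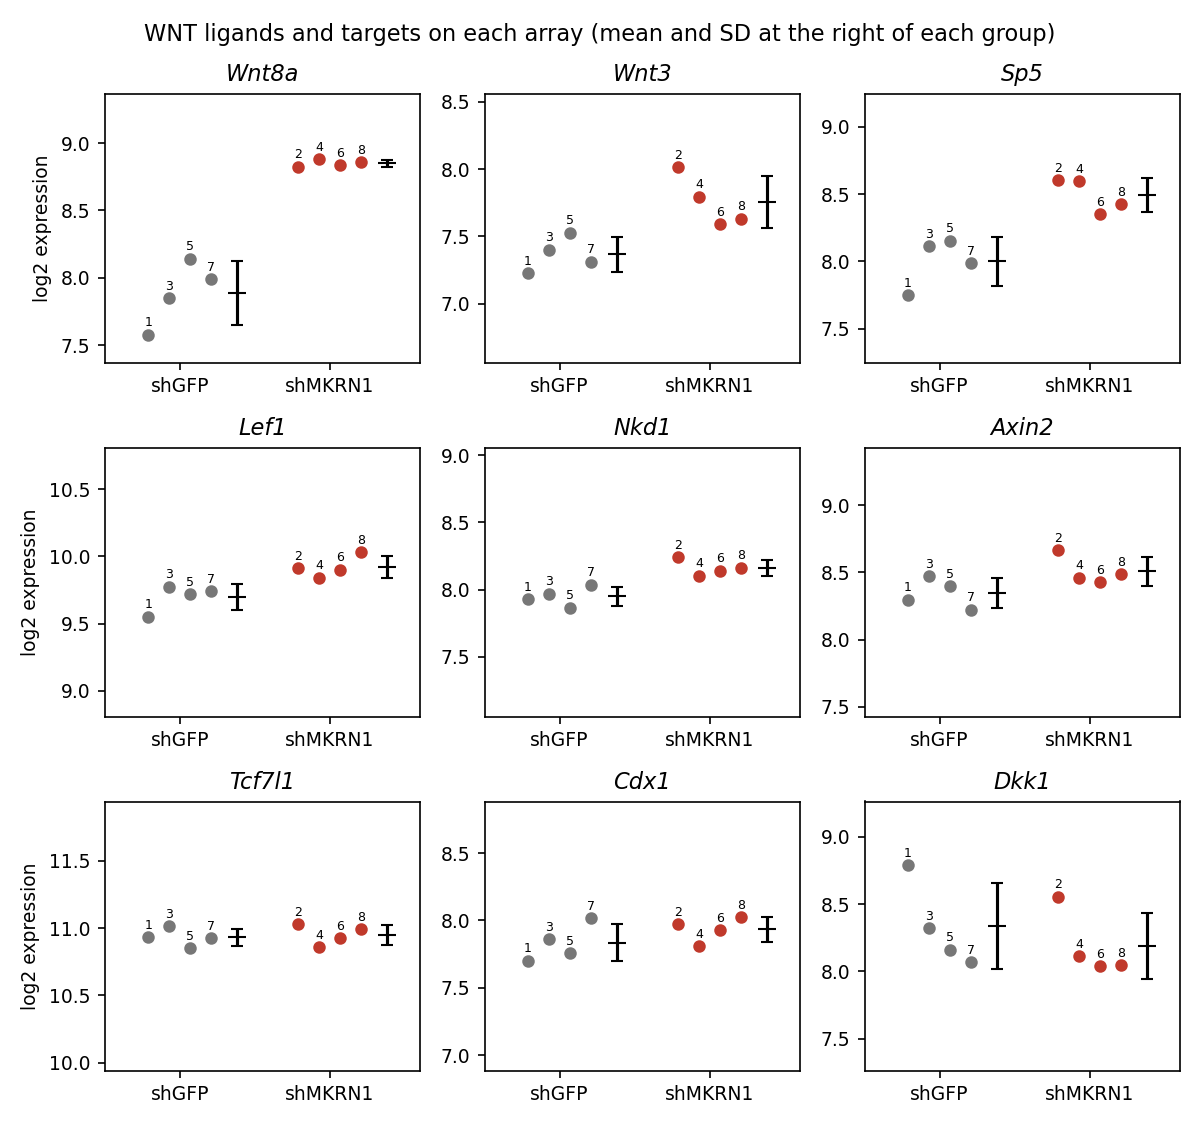
Log2 expression of the 9 measured genes on each array (points, labelled with the array number; grey shGFP, red shMKRN1), with the mean and SD of the 4 arrays at the right of each group; every panel spans the same range of 2 log2 units. Wnt8a is separated by 0.69, Wnt3, Sp5, Lef1 and Nkd1 by 0.062 to 0.20, and Axin2, Tcf7l1, Cdx1 and Dkk1 overlap.

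Set side by side, 8 of the 9 genes had a higher mean in shMKRN1 (52.8% of all genes did), and the median difference was 0.21, against 0.0077 over all genes. Among the 9, shGFP and shMKRN1 arrays were fully separated for 5, all higher, against 10.6% of all genes, and for 0 lower, against 3.51% (14.1% in either direction). At an adjusted p of 0.05 over all genes 2 of the 9 passed, both higher, against 3.66% of all genes higher and 0.838% lower. An unadjusted p under 0.05 was met by 5 of the 9 and by 19.5% of all genes. The genes were chosen with this contrast known, so nothing is read from these shares. Just inside the threshold lay Sp5 with its difference of 0.49, and just outside it Wnt3 (0.39) and Nkd1 (0.21). The number passing depended on the settings, from 1 without shMKRN1 2 or without shMKRN1 4 to 5 with median centring or with a trended robust variance, where Wnt3, Lef1 and Nkd1 joined. Wnt8a passed in every fit run. No alternative changed the direction of Wnt8a, Wnt3, Sp5, Lef1, Nkd1, Axin2 or Cdx1, while Tcf7l1 and Dkk1 changed sign in some.

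**Figure D3:**
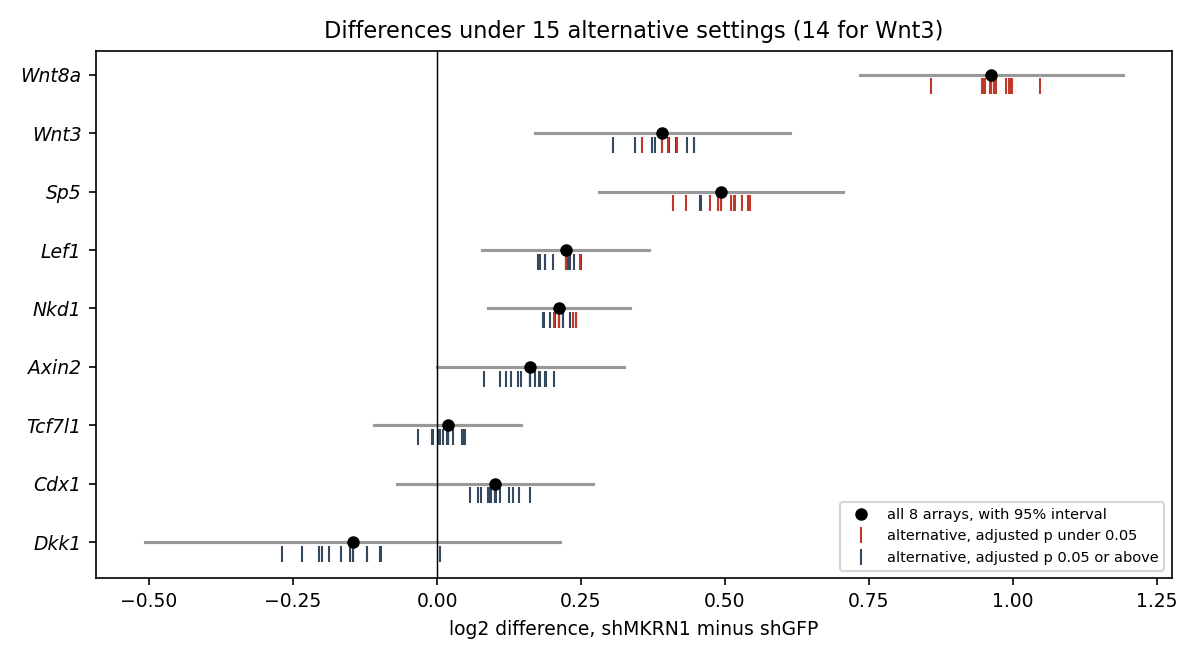
Log2 difference between shMKRN1 and shGFP for each gene with all 8 arrays (black points, 95% interval as grey lines) and under the alternative settings (ticks, red where the gene passed an adjusted p of 0.05 over all genes). Wnt8a stays between 0.86 and 1.05 and Sp5 between 0.41 and 0.54, while the ticks of Tcf7l1 and Dkk1 fall on both sides of 0.

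The rest of the pathway was described from 8 lists of genes by role. They hold 127 measured genes, of which 118 are outside the set. Of these 118, 7 rose and 3 fell at a limma adjusted p of 0.05 (8.47%, against 4.49% of all genes), and the median difference was 0.0045. The 10 genes were Porcn, Frzb, Csnk1e, Tnks, Tnfrsf19, Klf2 and Nanog, which were higher, and Sfrp1, Tle4 and Myc, which were lower. The lists include 5 pluripotency genes that TCF7L1 is known to repress, chosen with the changes of Nanog and Klf2 already known. Nothing is therefore read from the share of 8.47%. Leaving out 1 array moved the count of 10: it was 13 without shGFP 7, 7 without shGFP 5 and 6 without shMKRN1 8. It was 5 without shGFP 1, and 3 without shGFP 3, shMKRN1 2, shMKRN1 4 or shMKRN1 6. Porcn and Sfrp1 passed in every fit run.

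Porcn encodes the acyltransferase of the endoplasmic reticulum that attaches the lipid WNT proteins need for secretion. It read 9.24, 9.25, 9.04 and 8.98 in shGFP and 9.65, 9.54, 9.68 and 9.57 in shMKRN1. It rose 1.40-fold (0.48, SE 0.074; limma adjusted p = 0.00739). Of the 6 genes of its list, which also holds Wls and the R-spondins, no other passed.

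Sfrp1 encodes a secreted Frizzled-related protein that binds WNT ligands outside the cell. It read 9.77, 9.74, 9.60 and 9.39 in shGFP and 9.15, 9.05, 8.97 and 8.85 in shMKRN1. It fell by 0.62 (SE 0.093; limma adjusted p = 0.00651), and all shMKRN1 arrays were below every shGFP array. Frzb, of the same family, rose (0.55, SE 0.11; limma adjusted p = 0.0270), but its means of 5.85 and 6.40 both lay within the background of silent genes. Its call was lost without shMKRN1 2, shMKRN1 4, shMKRN1 8, shGFP 1 or shGFP 3 (limma adjusted p up to 0.0795). The 18 other inhibitors measured besides Dkk1 did not pass, and the list of 20 had a median difference of -0.025.

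None of the 19 receptor and coreceptor genes passed limma, with 6 at an unadjusted p under 0.05, 5 of them higher. The smallest p was that of Ror2, a receptor tyrosine kinase of WNT5A signalling (0.28, SE 0.079; limma adjusted p = 0.0738). Among 24 genes of Dishevelled, the destruction complex and beta-catenin outside the set, 2 rose. Csnk1e, a CK1 kinase that acts on Dishevelled, rose by 0.26 (SE 0.055; limma adjusted p = 0.0277), a call lost without shGFP 3, shMKRN1 2, shMKRN1 4, shMKRN1 6 or shMKRN1 8 (limma adjusted p up to 0.0867). Tnks, a tankyrase that marks AXIN proteins for degradation, rose by 0.22 (SE 0.052; limma adjusted p = 0.0467), a call lost without any 1 array. Ctnnb1, the gene of beta-catenin, differed by 0.10 (SE 0.045; limma adjusted p = 0.245) and Gsk3b by -0.12 (SE 0.065; limma adjusted p = 0.355), neither past the threshold.

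Among 18 TCF/LEF factors, cofactors and corepressors outside the set, Tle4, a Groucho corepressor gene, fell by 0.21 (SE 0.045; limma adjusted p = 0.0285), and no other passed. It read 11.34 to 11.41 on the shGFP arrays and 11.13 to 11.20 on the shMKRN1 arrays. The call was lost in 6 of the 8 fits that left out 1 array (limma adjusted p up to 0.106) and with median centring. Tcf7l2 differed by -0.027 (SE 0.055; limma adjusted p = 0.85).

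Direct WNT targets outside the set went both ways. Of 15 measured, Tnfrsf19, the gene of a TNF receptor family member, rose and Myc fell, with a median difference of 0.048. Tnfrsf19 read 8.17, 8.41, 8.46 and 8.14 in shGFP and 8.83, 8.71, 8.69 and 8.70 in shMKRN1 (0.44, SE 0.081; limma adjusted p = 0.0172). The groups did not overlap, and the call was lost without shMKRN1 2 or shMKRN1 6 (limma adjusted p up to 0.0611). Myc, a growth regulator that is a target in many cell types, read 10.85, 10.92, 10.81 and 10.87 against 10.70, 10.51, 10.51 and 10.57. It fell by 0.29 (SE 0.057; limma adjusted p = 0.0221), a call lost without shGFP 1, shGFP 3, shMKRN1 4 or shMKRN1 6 (limma adjusted p up to 0.0832). The cyclin gene Ccnd1, another commonly cited target, differed by -0.031 (SE 0.053; limma adjusted p = 0.814). T, the streak factor gene, was not analysed here.

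Of 5 pluripotency genes that TCF7L1 is known to repress, Nanog (0.25, SE 0.050; limma adjusted p = 0.0256) and Klf2 (0.32, SE 0.073; limma adjusted p = 0.0369) rose, and 2 of the 5 had lower means. The call of Nanog was lost without shGFP 3, shMKRN1 2, shMKRN1 4 or shMKRN1 6, and that of Klf2 in 7 of the 8 fits that left out 1 array. This list was short and was made with the changes of both genes already known.

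**Figure D4:**
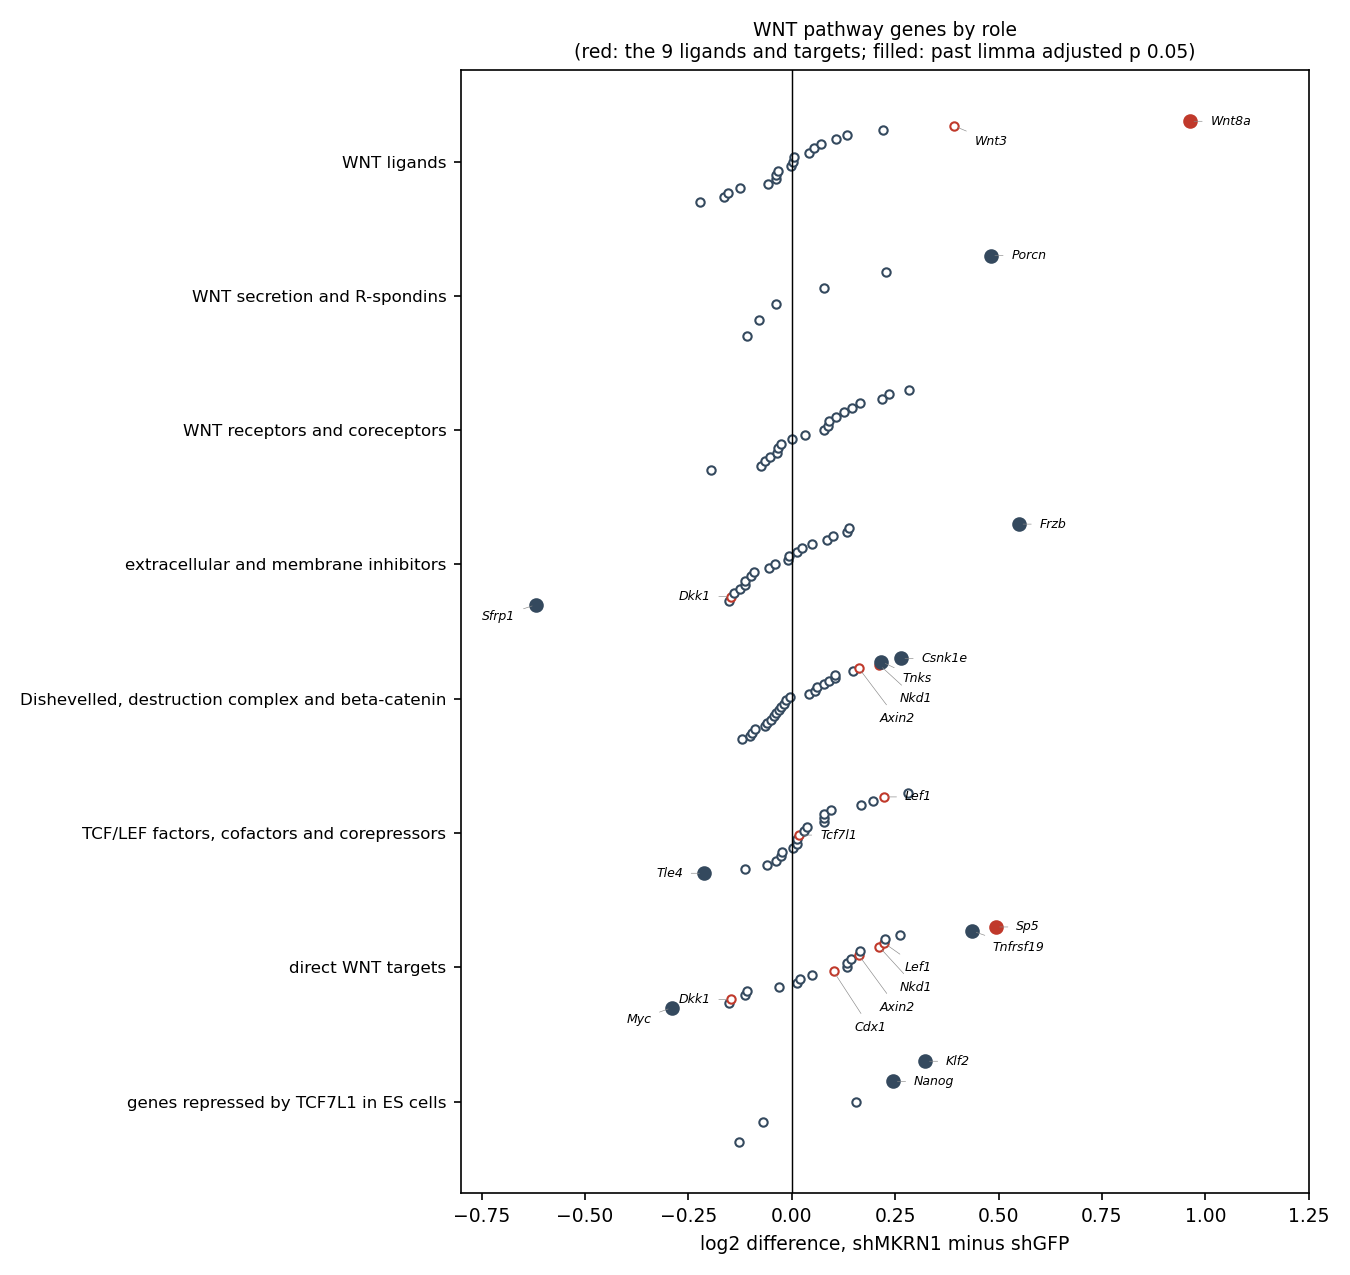
Log2 difference between shMKRN1 and shGFP (horizontal axis) for the measured WNT pathway genes, grouped by role and ordered by size within each role; red points are the 9 ligands and targets, and filled points passed limma at an adjusted p of 0.05. Wnt8a stands at 0.96 and Sfrp1 at -0.62, while most genes lie within 0.3 of 0.

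Of 11 measured markers of the primitive streak and early mesoderm 4 rose, against 3.66% of all genes, and all 11 had higher means. Their mean level was 7.09 to 7.28 on the shGFP arrays and 7.46 to 7.72 on the shMKRN1 arrays. Mixl1 and Eomes, streak factor genes, rose by 1.66 (SE 0.15) and 0.96 (SE 0.12; limma adjusted p = 0.000882 and 0.00268). Their part in the differences of Wnt8a, Wnt3 and Sp5 was not tested. Markers of the other cell types such a culture can hold overlapped between the groups in mean level for primitive endoderm (12 genes, 7.58 to 7.73 and 7.54 to 7.71), trophectoderm (9 genes, 8.59 to 8.93 and 8.76 to 9.04) and fibroblasts (10 genes, 7.69 to 7.80 and 7.67 to 7.84). Of the 9 trophectoderm markers 7 had higher and 2 lower means, with a median difference of 0.15. An unadjusted limma p under 0.05 was met by 3 of them, all higher, against 19.5% of all genes. Higher means were held by 8 of 12 primitive endoderm (median 0.018) and 6 of 10 fibroblast markers (0.045), against 52.8% of all genes. The mean level of neural ectoderm markers was lower on every shMKRN1 array (9 genes, 8.32 to 8.38 and 8.07 to 8.13), with 1 gene past the threshold. The number of these genes that rose was 0 for primitive endoderm, 1 for trophectoderm and 2 for fibroblasts, and 1 fibroblast marker fell. Within the background lay 1 streak, 2 primitive endoderm, 1 trophectoderm, 2 fibroblast and 1 neural markers. The part of these markers in the differences above was not tested.

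How the genes varied among arrays of the same hairpin is a measure the choice of genes did not use. After each group mean was removed, Pearson correlations over the 8 arrays were positive for 26 of the 36 pairs, with a median of 0.21 and a range of -0.76 to 0.84. They are descriptions over few points that share the same arrays and their normalization. The count was not set beside that of other genes, so it does not show that these genes vary together more than others. Wnt3 went with Sp5 (0.84) and Axin2 (0.77), and Nkd1 went with Cdx1 (0.78) and Tcf7l1 (0.72). Wnt8a and Dkk1 went opposite ways (-0.76). Wnt8a deviated by -0.024 to 0.031 on the shMKRN1 arrays and by -0.31 to 0.25 on the shGFP arrays. Its correlations, here and with the streak genes below, therefore rest mostly on the 4 shGFP arrays. Without shGFP 7 and shMKRN1 8 the median was 0.41 and 30 of the 36 pairs were positive.

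The order of the genes in their within-group correlation with streak genes depended on the streak genes used. With the mean of all 11 streak markers the correlation was 0.71 for Lef1, 0.68 for Cdx1, 0.62 for Nkd1, 0.61 for Tcf7l1, 0.54 for Sp5, 0.49 for Wnt3, 0.49 for Axin2, 0.31 for Wnt8a and -0.084 for Dkk1. With Mixl1 alone it was 0.92 for Wnt3, 0.86 for Sp5, 0.71 for Wnt8a and 0.56 for Axin2, and between -0.13 and 0.24 for the other 5 genes. With Eomes alone it was 0.93 for Wnt3, 0.82 for Sp5, 0.70 for Axin2 and 0.57 for Wnt8a, and between -0.21 and 0.13 for the other 5. Dkk1 had a correlation of 0.99 with the mean of 9 trophectoderm markers. Arrays shGFP 1 and shMKRN1 2 were high for both, by 0.45 and 0.37 for Dkk1 and by 0.22 and 0.19 for the markers, and over the other 6 arrays the correlation was 0.90. The 0.99 was the largest correlation of any gene of the set with the mean of a cell type's markers. Dkk1 also reached 0.78 with primitive endoderm and 0.58 with embryonic stem cell markers. Axin2 and Tcf7l1 reached 0.76 and 0.73 with primitive endoderm markers, and Wnt8a -0.77 with trophectoderm markers. The part of any of these markers in the Dkk1 values or those of the other genes was not tested.

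**Figure D5:**
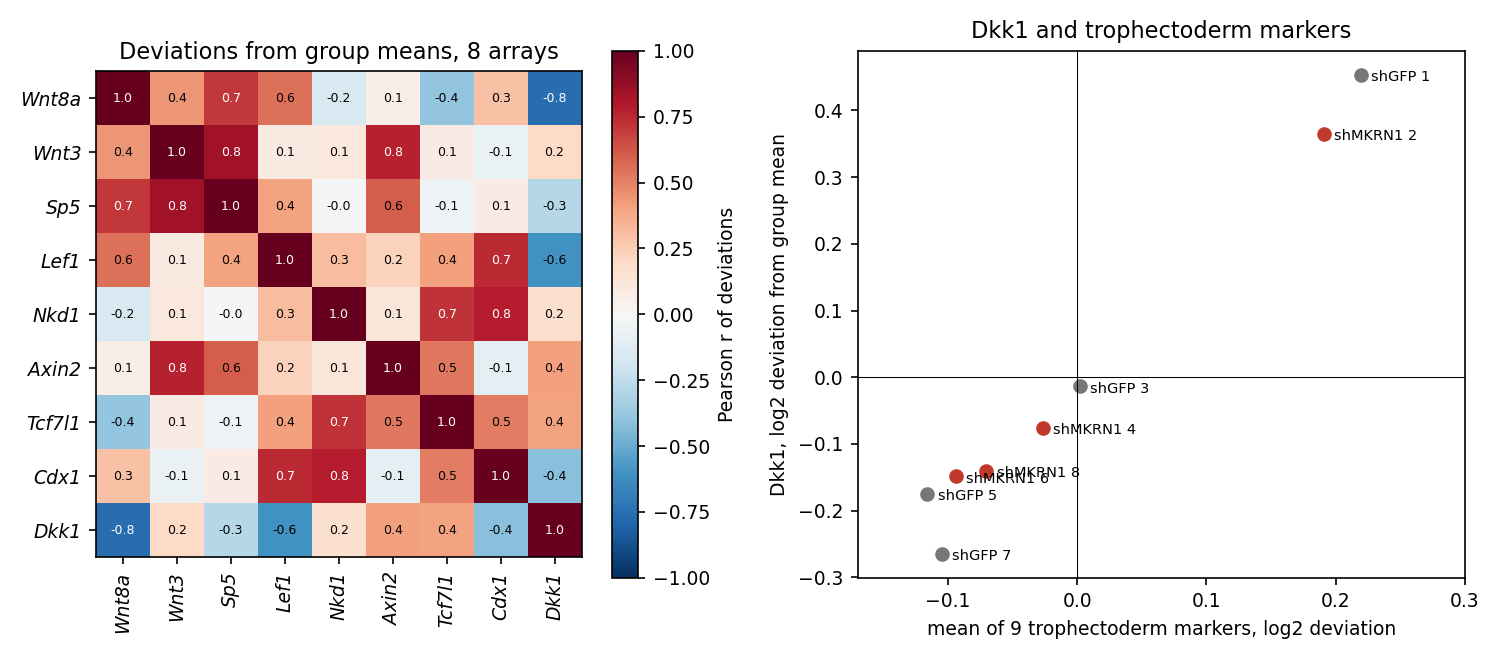
Left, Pearson correlations between the 9 genes of their log2 deviations from the group mean over 8 arrays (colour and number); right, the deviation of Dkk1 against the mean deviation of 9 trophectoderm markers on each array (grey shGFP, red shMKRN1). Wnt3 and Sp5 reach 0.84, Wnt8a and Dkk1 -0.76, and shGFP 1 and shMKRN1 2 stand at the upper right.

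The set does not sit in 1 place in the genome: the 9 genes lie on 7 chromosomes, with Wnt3 and Axin2 on chromosome 11 and Wnt8a and Cdx1 on chromosome 18. Of the 18 nearest measured neighbours in the RefSeq gene order 2 rose at a limma adjusted p of 0.05, against 3.66% of all genes, with a median difference of 0.033 over the 18. Nme5, next to Wnt8a, rose by 0.36 (SE 0.071; limma adjusted p = 0.0235), from 6.24, which is within the background, to 6.60. Its call was lost without shGFP 1, shGFP 3, shMKRN1 4 or shMKRN1 6. Pdgfrb, next to Cdx1 and a receptor gene of mesenchymal cells, rose by 0.35 (SE 0.077; limma adjusted p = 0.0342), and kept its call in 1 of the 8 fits that left out 1 array. Wnt9b, the ligand gene beside Wnt3, differed by -0.033 (SE 0.10; limma adjusted p = 0.903).

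The genes outside the set whose within-group deviations were most like the mean of the 6 measured targets Sp5, Lef1, Nkd1, Axin2, Cdx1 and Dkk1 were Pmch (0.982), Rapgef1 (0.979), Tppp2 (0.970), Nfrkb (0.968) and Ddx55 (0.968). With 8 arrays, 82 of 19928 genes reached a correlation above 0.9. None of the 5 passed limma between the groups (adjusted p between 0.247 and 0.869), and Ddx55 alone had an unadjusted p under 0.05 (0.0462). Their differences lay between 0.027 and 0.17, and Pmch and Tppp2 were within the background in both groups. The mean of the 6 targets is not a profile that all of them share. On shGFP 1 Dkk1 deviated by 0.45 and Sp5 by -0.25, while the mean deviated by -0.024. Likeness to this mean is therefore not likeness to each target.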

How the data were processed

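The authors deposited log2 expression values of 34760 probe sets on 8 arrays, for which the submitters' processing notes name RMA without a version. RMA brings arrays to a common distribution, so a change shared by most genes is not visible, and small changes of dim probe sets are understated. Probe sets with 1 gene symbol in the platform annotation were used (21640), keeping the highest mean per symbol, which left 19937 genes. Each measured gene of the set had 1 probe set. Aes was read under its current symbol Tle5.

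Groups were compared with limma 3.58.1 in R 4.3.3 (lmFit and eBayes, 6 residual degrees of freedom, no covariate, no filter), two-sided, with Benjamini-Hochberg adjustment over all genes and a threshold of 0.05; intervals are 95% intervals of this fit. The fit was run on simulated arrays, drawn with independent noise from the measured means and spreads, with known changes added. Only the average estimate of the added changes was checked, not the calls, and the simulated arrays share nothing between them. Alternatives were quantile normalization, median centring, genes above the median level, the mean of probe sets, array weights, a trended robust variance and leaving out arrays. The number of arrays limits the precision. The genes, lists and tests were chosen with earlier results of these data known. Named genes were the set, pathway genes past the threshold (otherwise the smallest p of a list), 6 fixed genes, called neighbours and the 5 most similar genes.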

Additional observations from a re-analysis of the deposited data

Results flagged for a closer look

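In a pair of cases among 48 groups of 4 arrays examined (24 genes), 1 array lay far from the other 3; chance gives about 1 in 20 such groups. Both were array shMKRN1 2. Dkk1 read 8.55 there against 8.04 to 8.11 on the other shMKRN1 arrays. Tnfrsf19 read 8.83 there against 8.69 to 8.71.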

How the results depend on the processing

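Of 19937 genes 896 passed with all arrays, 1595 of the genes above the median level, 2757 with array weights, 1549 with a trended robust variance, and 309 to 852 with 1 array left out. Of the 9 genes of the set 2 passed. The number was 5 with median centring, 4 with array weights, 5 with a trended robust variance, and 1 to 3 with 1 array left out. With only genes above the median level it was 4 of the 8 that were fitted, since Wnt3 was filtered out. Of the pathway genes outside the set 10 passed. This number was 16 above the median level, 22 with array weights, 16 with a trended robust variance, and 3 to 13 with 1 array left out. Of the neighbours 2 passed, 5 with array weights, 4 with a trended robust variance and 0 to 3 with 1 array left out. The filter tests fewer genes; the cause of the other shifts was not tested. Tcf7l1 (0.018) was -0.033 with array weights, -0.0076 without shMKRN1 2, -0.0080 without shGFP 5 and at most 0.049 with 1 array left out. Without shGFP 1, Dkk1 was 0.0044 and Tcf7l2 0.0062, and their lowest values with 1 array left out were -0.27 and -0.053. With 1 more base required, the motif was found in 1 gene of the set instead of 4. Leaving out shGFP 7 and shMKRN1 8 together, chosen after seeing the data, gave 917 genes, 2 of the set and 7 of the pathway. Mkrn1 lay between -0.63 and -0.57 with 1 array left out. No paired analysis was run, because the groups share no replicate number and no label ties an array of one hairpin to an array of the other. The array numbers alternate between the groups, and a block of consecutive numbers was not tested. In array order 1 to 8, Dkk1 deviated from its group means by 0.45, 0.37, -0.014, -0.076, -0.17, -0.15, -0.26 and -0.14. Sp5 deviated by -0.25, 0.11, 0.11, 0.10, 0.15, -0.14, -0.013 and -0.069. The intervals and correlations take no account of anything that consecutive arrays may share. Genes within the background of silent receptors cannot be assessed.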
